A study of Homo sapiens with 15 samples.

Results

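REST, SRRM4, INSM1, ONECUT2, SOX2, POU3F2 and NEUROD1 are regulators that set neural or neuroendocrine gene expression, and their RNA levels were followed across the 5 VCaP sublines. These 7 genes were taken by name, as a repressor, its splicing antagonist and transcription factors of the neuroendocrine lineage, and were matched by Ensembl identifier among the 58381 genes listed in each library. All 7 were listed, 6 were counted in some library, and 5 passed the filter on low counts.

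VCaP is an established human prostate cancer cell line, and its sublines were derived in sequence to model testosterone withdrawal and resistance to the androgen receptor antagonists enzalutamide (ENZ) and bicalutamide. RNA sequencing was done on 3 libraries per subline, 15 in all, with 33665716 to 46935279 fragments counted in each. VCaP-T came from a culture of 7 months in which testosterone was present at 10 nM, and lowering it to 0.1 nM for another 10 months gave VCaP-CT. VCaP-CT gave rise to VCaP-CT-ER during culture with 10 µM ENZ and to VCaP-CT-BR during culture with bicalutamide, and ENZ culture of the latter gave VCaP-CT-BR-ER. In order, these are the withdrawal step, the direct ENZ step, the bicalutamide step and the ENZ step after bicalutamide. The labels conflict on 2 points: the treatment field gives 10 nM testosterone for the second culture period as well, and that of VCaP-CT-BR names ENZ after bicalutamide. All sublines carry the testosterone culture of VCaP-T in their history and were kept in DCC-FBS medium. The protocol describes 1 derivation per subline, so treatment, time in culture and the course of that derivation cannot be told apart. The study's methods call the 3 libraries of a subline biological replicates, and neither they nor the labels say whether these were separate cultures, so p-values measure the spread between these libraries.

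REST is a zinc finger repressor that silences neuronal genes outside the nervous system by binding the RE1 element and recruiting the RCOR1 and SIN3A corepressor complexes with histone deacetylases. SRRM4 is a neural splicing factor that promotes inclusion of a neural REST exon, which yields a truncated repressor and releases REST target genes. Neuroendocrine prostate cancer is known for loss of REST activity and gain of SRRM4 and of transcription factors such as INSM1, ONECUT2, SOX2, POU3F2 (BRN2) and NEUROD1. Counts here are per gene and do not separate REST splice forms.

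REST rose and SRRM4 fell when testosterone was withdrawn, and the gap between them was wider still in the antagonist-resistant sublines. REST lies at chr4:56907876-56966678 on the plus strand (GRCh38). The VCaP-T libraries held 476, 532 and 670 REST counts, those of VCaP-CT 1026, 1097 and 1179, those of VCaP-CT-ER 1904, 2087 and 1750, those of VCaP-CT-BR 1519, 1382 and 1749, and those of VCaP-CT-BR-ER 1734, 1423 and 1644. In CPM, a gene's counts scaled to a common library total, VCaP-T had a mean of 14.4 ± 1.44 (SD, n = 3), VCaP-CT had 31.3 ± 1.07, VCaP-CT-ER had 43.1 ± 2.23, VCaP-CT-BR had 39.6 ± 3.63 and VCaP-CT-BR-ER had 41.1 ± 2.36. VCaP-T was the lowest subline with no overlap, VCaP-CT lay between it and the resistant sublines, and the 3 resistant sublines overlapped one another.

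The log2 fold change of REST from VCaP-T to VCaP-CT was 1.13 ± 0.08 (SE, edgeR adjusted p = 5.57e-11). REST rose by a further 0.41 ± 0.07 over VCaP-CT at the direct ENZ step (edgeR adjusted p = 5.93e-05) and by 0.32 ± 0.07 at the bicalutamide step (edgeR adjusted p = 0.00101). These 2 steps share the VCaP-CT libraries as their baseline. A second round of resistance brought no detectable change, with 0.06 ± 0.07 for VCaP-CT-BR-ER over VCaP-CT-BR (edgeR adjusted p = 0.556), an interval of 2 standard errors from -0.09 to 0.20. Of the 10 pairs of sublines, 7 differed in REST, and the 3 pairs among the resistant sublines did not pass. An exon of REST shares 23 of its 7983 exon bases with NOA1 on the opposite strand.

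**Figure D1:**
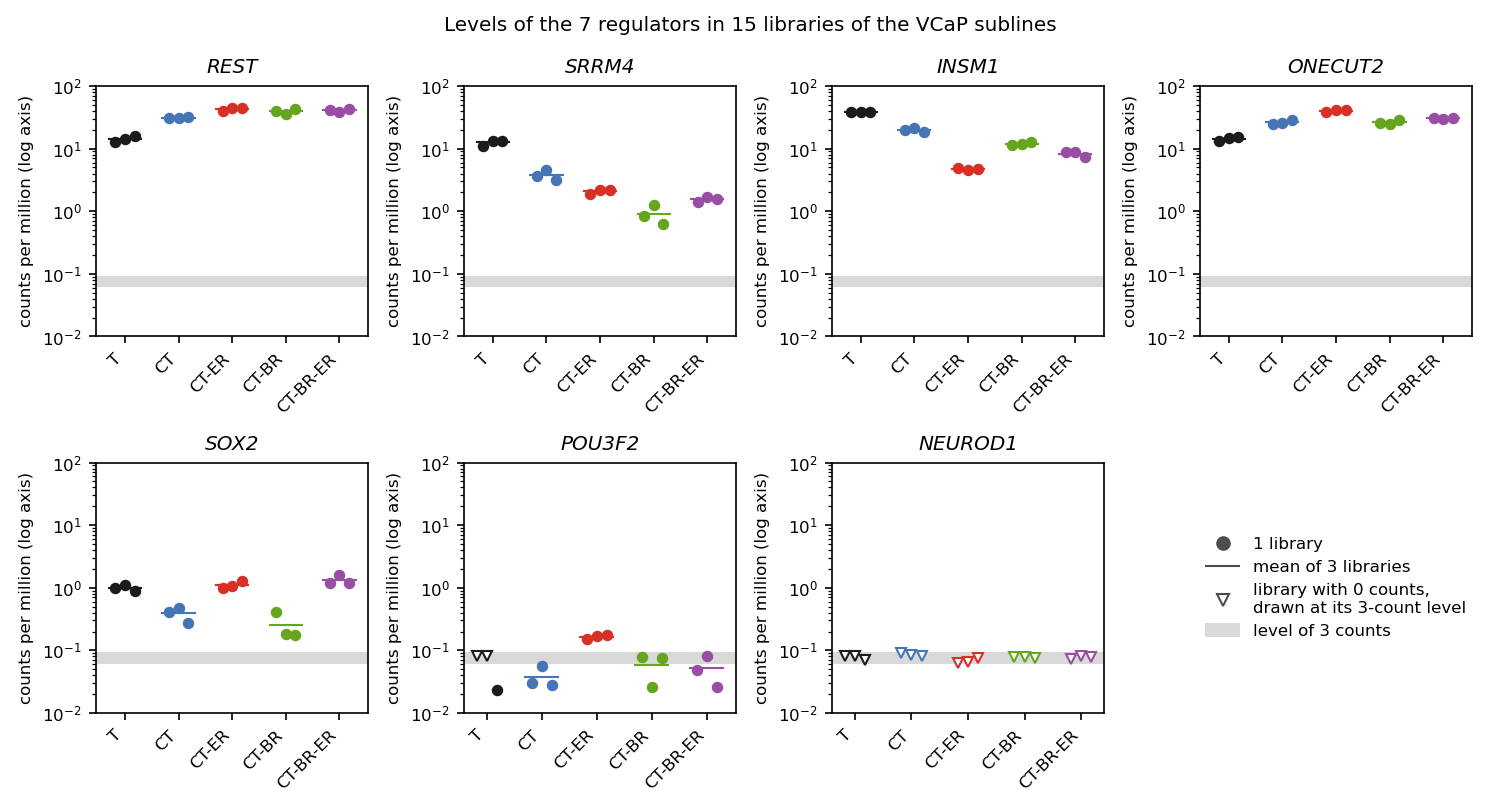
CPM (log axis) of the 7 regulators in each of the 15 libraries, by subline; dots are libraries, lines are means of 3, open triangles are libraries with 0 counts drawn at the level of 3 counts, and the grey band spans that level over the libraries. REST and ONECUT2 were lowest in VCaP-T, SRRM4 and INSM1 were highest there, SOX2 stood near 1 CPM in VCaP-T and both ENZ-resistant sublines, and NEUROD1 had 0 counts throughout.

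SRRM4 lies at chr12:118981495-119163051 on the plus strand (GRCh38) and was highest in VCaP-T, with 408, 493 and 566 counts. VCaP-CT held 121, 164 and 114, VCaP-CT-ER 90, 102 and 87, VCaP-CT-BR 33, 48 and 25, and VCaP-CT-BR-ER 57, 62 and 61. No library of another subline reached those of VCaP-T, and VCaP-CT-BR was the lowest group without overlap. VCaP-T had a mean of 12.6 ± 1.32 CPM (SD, n = 3), VCaP-CT had 3.79 ± 0.76, VCaP-CT-ER had 2.10 ± 0.16, VCaP-CT-BR-ER had 1.55 ± 0.15 and VCaP-CT-BR had 0.909 ± 0.321.

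The fall of SRRM4 from VCaP-T to VCaP-CT was 3.30-fold, or -1.72 ± 0.14 as log2 (edgeR adjusted p = 5.1e-10). Its level fell again by 0.90 ± 0.16 on the log2 scale in VCaP-CT-ER (edgeR adjusted p = 6.73e-05) and by 2.08 ± 0.19 in VCaP-CT-BR (edgeR adjusted p = 1.63e-08). The last step went the other way, with a rise of 0.77 ± 0.22 in VCaP-CT-BR-ER over VCaP-CT-BR (edgeR adjusted p = 0.00768). That rise rested on VCaP-CT-BR replicate 3, without which it was 0.56 (edgeR adjusted p = 0.0569). SRRM4 differed in 9 of 10 pairs of sublines, and the pair that did not pass was VCaP-CT-ER against VCaP-CT-BR-ER (edgeR adjusted p = 0.087).

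To set the genes side by side, levels were taken per exon length as FPKM (CPM per kilobase of exon). The ratio of SRRM4 FPKM to REST FPKM was 0.790 ± 0.040 (SD, n = 3) in VCaP-T, where both genes were near the same level. VCaP-CT had a ratio of 0.109 ± 0.024, VCaP-CT-ER had 0.0439 ± 0.0011, VCaP-CT-BR had 0.0213 ± 0.0093 and VCaP-CT-BR-ER had 0.0341 ± 0.0049. Each resistant subline thus lay below every VCaP-CT library in this ratio: the lowest VCaP-CT value was 0.0872 and the highest value of a resistant library was 0.0448.

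**Figure D2:**
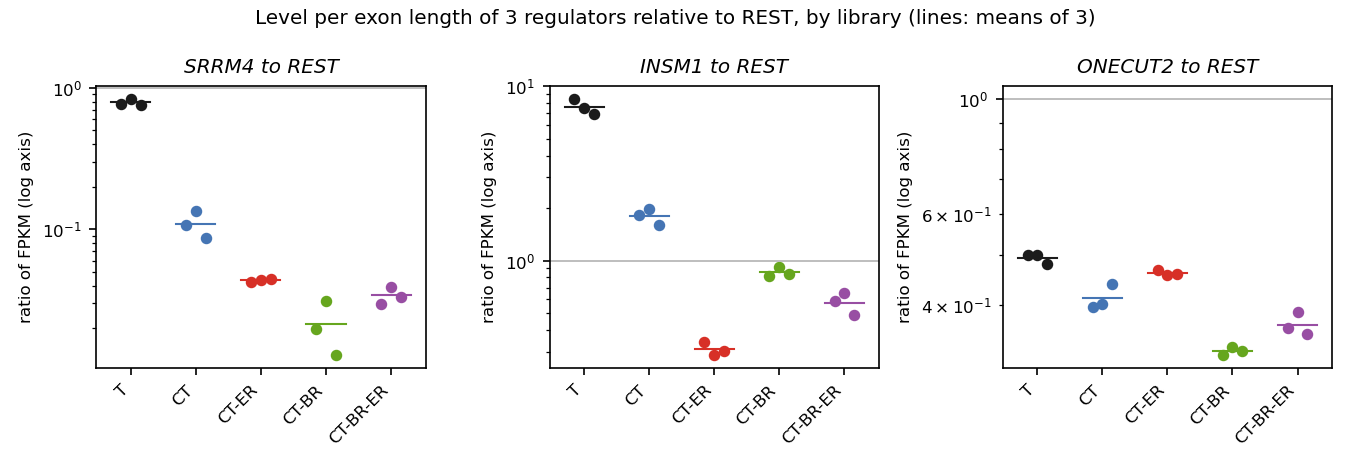
Ratio of the FPKM of SRRM4, INSM1 and ONECUT2 to that of REST in each library (log axes that differ between panels), with dots for libraries, short lines for means of 3 and a grey line at 1. The SRRM4 ratio was highest for VCaP-T, with a mean of 0.790, and lowest for VCaP-CT-BR, with 0.0213, the mean INSM1 ratio spanned 7.62 to 0.311, and the mean ONECUT2 ratio spanned 0.492 to 0.326.

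INSM1 is a zinc finger transcriptional repressor that promotes neuroendocrine differentiation in pancreas, adrenal and brain and is a clinical marker of neuroendocrine tumours. It is a single-exon gene at chr20:20368121-20370949 on the plus strand (GRCh38). VCaP-T held 1426, 1408 and 1646 counts, VCaP-CT 666, 765 and 670, VCaP-CT-BR 439, 451 and 518, VCaP-CT-ER 230, 212 and 189, and VCaP-CT-BR-ER 358, 328 and 282. No pair of sublines overlapped in CPM, and each of the 10 pairs passed the test. Mean CPM was highest for VCaP-T with 38.6 ± 0.36 (SD, n = 3), then VCaP-CT with 19.9 ± 1.55, VCaP-CT-BR with 12.0 ± 0.76, VCaP-CT-BR-ER with 8.29 ± 0.84 and VCaP-CT-ER with 4.73 ± 0.18.

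At testosterone withdrawal INSM1 fell by 0.94 ± 0.07 on the log2 scale (edgeR adjusted p = 2.55e-10), and at the direct ENZ step it fell by a further 2.13 ± 0.08 (edgeR adjusted p = 5.51e-15). The bicalutamide step gave -0.75 ± 0.08 (edgeR adjusted p = 5.66e-08), and the ENZ step after bicalutamide gave -0.53 ± 0.08 (edgeR adjusted p = 2e-05). VCaP-CT-ER thus held 8.38-fold less INSM1 than VCaP-T. In the ratio to REST per exon length, INSM1 began at 7.62 ± 0.77 for VCaP-T and came to 1.80 ± 0.18 for VCaP-CT, 0.857 ± 0.056 for VCaP-CT-BR, 0.572 ± 0.084 for VCaP-CT-BR-ER and 0.311 ± 0.028 for VCaP-CT-ER.

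ONECUT2 is a homeodomain factor of liver and neural development, known in prostate cancer as a driver of neuroendocrine features. Like REST, it rose at withdrawal and at the direct ENZ step, where SRRM4 and INSM1 fell. The gene lies at chr18:57435685-57491297 on the plus strand (GRCh38), and VCaP-T held 483, 540 and 653 counts of it, VCaP-CT 827, 896 and 1050, VCaP-CT-ER 1811, 1943 and 1635, VCaP-CT-BR 988, 933 and 1160, and VCaP-CT-BR-ER 1271, 1119 and 1173. VCaP-T was lowest and VCaP-CT-ER highest, both without overlap, and VCaP-CT and VCaP-CT-BR overlapped. In mean CPM the order was VCaP-CT-ER at 40.5 ± 1.64 (SD, n = 3), VCaP-CT-BR-ER at 30.5 ± 0.35, VCaP-CT at 26.3 ± 2.36, VCaP-CT-BR at 26.2 ± 2.27 and VCaP-T at 14.4 ± 1.17.

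From VCaP-T to VCaP-CT the log2 fold change of ONECUT2 was 0.88 ± 0.08 (edgeR adjusted p = 2.39e-09), and at the direct ENZ step it was 0.57 ± 0.07 (edgeR adjusted p = 7.47e-07). Bicalutamide resistance gave -0.02 ± 0.07 (edgeR adjusted p = 0.848), with an interval of 2 standard errors from -0.17 to 0.13. The ENZ step after bicalutamide gave 0.22 ± 0.07 (edgeR adjusted p = 0.018), which was 0.18 without VCaP-CT-BR replicate 2 (edgeR adjusted p = 0.0788). The ratio of ONECUT2 to REST per exon length moved little by comparison, between means of 0.326 in VCaP-CT-BR and 0.492 in VCaP-T.

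SOX2, a factor of neural progenitors and pluripotent cells, was low in all sublines and rose at both ENZ steps. It is a single-exon gene at chr3:181711924-181714436 on the plus strand (GRCh38), inside an intron of SOX2-OT, a transcript of the same strand with 2 to 13 counts and no shared exon base. VCaP-T held 37, 41 and 38 SOX2 counts, VCaP-CT 14, 17 and 10, VCaP-CT-ER 47, 50 and 50, VCaP-CT-BR 16, 7 and 7, and VCaP-CT-BR-ER 49, 60 and 46. The libraries thus fell into a higher set made of VCaP-T and both ENZ-resistant sublines and a lower set made of VCaP-CT and VCaP-CT-BR, with no overlap in CPM between them. By mean CPM the order was VCaP-CT-BR-ER with 1.33 ± 0.25 (SD, n = 3), VCaP-CT-ER with 1.11 ± 0.13, VCaP-T with 1.00 ± 0.11, VCaP-CT with 0.390 ± 0.104 and VCaP-CT-BR with 0.257 ± 0.136.

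Testosterone withdrawal gave a SOX2 log2 fold change of -1.34 ± 0.28 (edgeR adjusted p = 0.00029). SOX2 was higher by 1.45 ± 0.27 in VCaP-CT-ER than in VCaP-CT (edgeR adjusted p = 0.000107) and by 2.37 ± 0.29 in VCaP-CT-BR-ER than in VCaP-CT-BR (edgeR adjusted p = 8.55e-07). Bicalutamide resistance gave -0.62 ± 0.37, which did not pass (edgeR adjusted p = 0.166) but came to -1.14 without VCaP-CT-BR replicate 1 (edgeR adjusted p = 0.0258). Against VCaP-T, neither VCaP-CT-ER, at 0.10 ± 0.22 (edgeR adjusted p = 0.697), nor VCaP-CT-BR-ER, at 0.41 ± 0.22 (edgeR adjusted p = 0.107), passed, and the intervals of 2 standard errors ran from -0.35 to 0.55 and from -0.04 to 0.85.

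**Figure D3:**
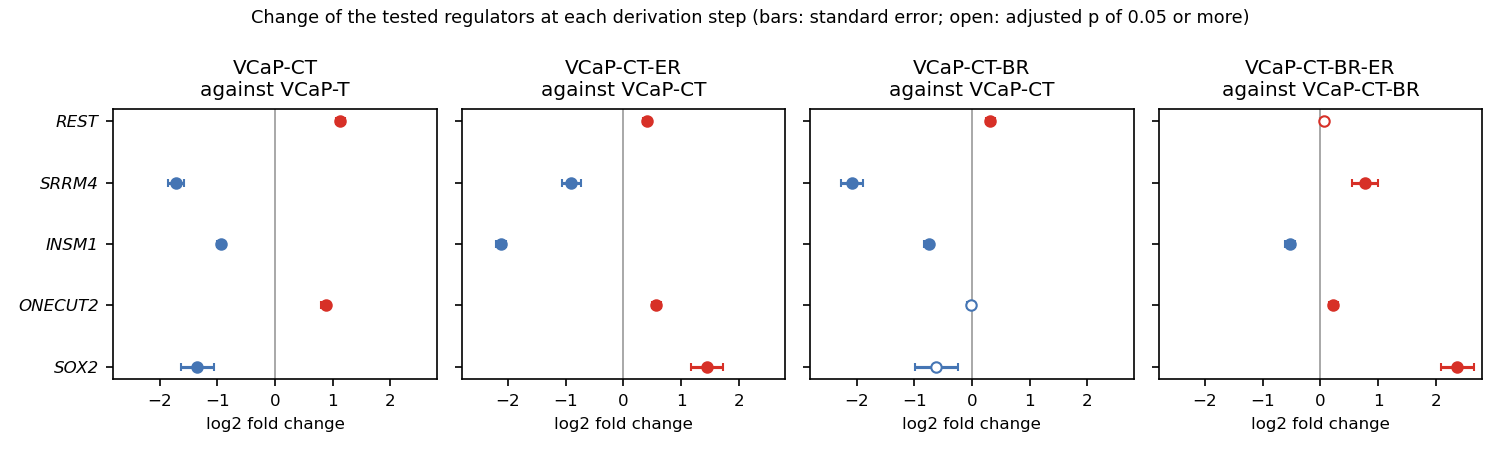
Log2 fold changes (dots) with standard errors (bars) of the 5 tested regulators at the 4 derivation steps, red for a positive and blue for a negative value, open where the adjusted p was 0.05 or more. INSM1 was negative at each step, from -2.13 to -0.53, SOX2 rose at both ENZ steps, by 1.45 and 2.37, and REST was open only at the last step, with 0.06.

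POU3F2, a POU domain factor of neural progenitors known as BRN2, had 40 counts in all 15 libraries together and was too low to be tested after filtering. It is a single-exon gene at chr6:98834592-98839470 on the plus strand (GRCh38). VCaP-T held 0, 0 and 1 counts, VCaP-CT 1, 2 and 1, VCaP-CT-ER 7, 8 and 7, VCaP-CT-BR 3, 1 and 3, and VCaP-CT-BR-ER 2, 3 and 1. The 3 VCaP-CT-ER libraries were the highest, without overlap, and the only ones above 3 counts.

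Summed over libraries, VCaP-CT-ER had 22 POU3F2 counts and VCaP-CT had 4, a depth-scaled ratio of 4.35 with an exact 95% interval from 1.48 to 17.4 that covers counting error only. When the filter was left off, the log2 fold change at this step was 2.02 ± 0.88 and did not pass (edgeR adjusted p = 0.0676). At the remaining steps the counts were 4 against 1 at testosterone withdrawal, a ratio of 4.41 (0.436 to 217), 7 against 4 at the bicalutamide step, a ratio of 1.57 (0.400 to 7.33), and 6 against 7 at the ENZ step after it, a ratio of 0.861 (0.239 to 2.99). Each of these 3 intervals held 1.

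NEUROD1, a proneural basic helix-loop-helix factor, had 0 counts in each of the 15 libraries. A limit of 3 counts corresponds to 0.0639 to 0.0891 CPM in a single library and, over the 588942748 fragments counted in all libraries, to 0.00509 CPM. The gene lies at chr2:181673088-181680876 on the minus strand (GRCh38), and 236 of its 3312 exon bases are shared with CERKL on the same strand, where fragments were not assigned to either gene. A listing at 0 shows that no fragment was assigned: EHMT2, a histone methyltransferase used by most cell types, was also listed with at most 1 count in any library. In bulk libraries, fewer cells expressing a gene and less RNA per cell cannot be told apart, for these as for the other regulators.

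Counted together, 5 of 5 tested regulators changed from VCaP-T to VCaP-CT, 2 upwards and 3 downwards, where 65.3% of the 19621 genes tested were called, 33.1% as higher and 32.2% as lower. At the direct ENZ step it was again 5 of 5, with 3 up and 2 down, against 60.9% of all genes (29.6% higher and 31.2% lower). VCaP-CT-BR against VCaP-CT gave 3 of 5, 1 up and 2 down, against 53.2% (26.1% higher and 27% lower). The ENZ step after bicalutamide gave 4 of 5, 3 up and 1 down, against 42.9% (21.2% higher and 21.7% lower). The other 6 pairs of sublines brought the calls to 41 of 50 over pairs and regulators, and the share of all genes called was 69% for VCaP-CT-ER against VCaP-T, 71.2% for VCaP-CT-BR against VCaP-T and 70.2% for VCaP-CT-BR-ER against VCaP-T. It was 52.5% for VCaP-CT-BR-ER compared with VCaP-CT, 55.9% between the single-step ENZ and bicalutamide sublines and 45.9% between the ENZ-resistant ones. With shares this high, the number of regulators called does not set them apart from other genes. The same shares are the background for the counts of each gene list given below. The regulators did not share a direction at any step.

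ENZ resistance was reached from VCaP-CT and from VCaP-CT-BR, and the test of the difference between the 2 steps was passed by 4 of 5 regulators, where 49.7% of all genes passed. The label of VCaP-CT-BR names ENZ after bicalutamide, so whether this starting subline had already met ENZ is not known. INSM1 fell less after bicalutamide, by a difference of 1.598 ± 0.117 on the log2 scale (edgeR adjusted p = 4.47e-10). SRRM4 fell in the direct step and rose in the step after bicalutamide, with a difference of 1.68 ± 0.28 (edgeR adjusted p = 3.49e-05). That rise rested on VCaP-CT-BR replicate 3, as given above. For REST, which rose in the direct step and did not pass in the step after bicalutamide, the difference was -0.35 ± 0.10 (edgeR adjusted p = 0.00765). ONECUT2 rose in both steps and less in the step after bicalutamide, by a difference of -0.35 ± 0.10 (edgeR adjusted p = 0.00802). For SOX2 the difference was 0.92 ± 0.42 and did not pass (edgeR adjusted p = 0.078), but it came to 1.11 without VCaP-CT replicate 3 (edgeR adjusted p = 0.0421) and to 1.44 without VCaP-CT-BR replicate 1 (edgeR adjusted p = 0.0123).

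The partners of REST were described by a list of 13 corepressors and regulators of its turnover, of which 12 were tested. From VCaP-T to VCaP-CT, 9 rose and 0 fell, where 33.1% of all genes rose and 32.2% fell. The median log2 fold change was 0.31 beside 0.03 over all genes. RCOR2, a homologue of the corepressor RCOR1, changed most, from 3.18 to 6.22 CPM (log2 fold change 0.97 ± 0.13, edgeR adjusted p = 1.06e-06), and HDAC2, a histone deacetylase, rose by 0.42 ± 0.06 (edgeR adjusted p = 1.3e-06). RCOR2 fell again by 1.82 ± 0.14 in VCaP-CT-ER (edgeR adjusted p = 2.43e-10) and by 1.88 ± 0.14 in VCaP-CT-BR (edgeR adjusted p = 6.45e-10), whereas RCOR3 rose by 0.43 ± 0.05 (edgeR adjusted p = 2.76e-07) and 0.70 ± 0.05 (edgeR adjusted p = 4.34e-10). In all, 3 rose and 3 fell at the direct ENZ step, 6 rose and 3 fell at the bicalutamide step, and 4 rose and 2 fell at the ENZ step after it. Of all genes tested, 60.9%, 53.2% and 42.9% were called at these steps. With scaling to the 75th percentile, the counts in VCaP-CT-BR were 4 up and 4 down.

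Genes known as targets of REST were searched for the letters of the RE1 motif, those in capitals in the sequences shown, of which the 2 between CACC and GGAC could be any base, on both strands within 5000 bases of the gene start on GRCh38. These letters occurred at 251 places in the genome and near 81 of 58381 genes (0.139%). They were found near 8 of the 20 listed targets, a list assembled from known targets of REST, and near 0 of the 7 regulators, which says only that these letters are not in those windows. The sites shown belong to targets whose levels are given next, plus CHGA as the defining neuroendocrine marker, with the motif in capitals and 5 flanking bases on each side, read 5′ to 3′ on the strand of the gene. The motif of CHRNB2 lies at chr1:154567954-154567970 (plus), that of SNAP25 at chr20:10219672-10219688 (plus), that of SYT4 at chr18:43277297-43277313 (minus), that of SYN1 at chrX:47620074-47620090 (minus), that of GRIN1 at chr9:137139260-137139276 (plus) and that of CHGA at chr14:92923523-92923539 (plus).
CHRNB2: gcggcTTCAGCACCACGGACAGcgccc
SNAP25: gacctTTCAGCACCGGGGACAGcggtc
SYT4: ttcccTTCAGCACCTCGGACAGaacac
SYN1: ccagcTTCAGCACCGCGGACAGtgcct
GRIN1: cccgcTTCAGCACCGCGGACAGcgccg
CHGA: gagttTTCAGCACCGCGGACAGcgcct

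From VCaP-T to VCaP-CT, 13 of the 15 tested targets fell and 2 rose, where 32.2% of all genes fell and 33.1% rose. The other 5 targets did not pass the filter on low counts. Targets such as SYT4 and SNAP25 passed that filter only through VCaP-T, where they are high, and so had to fall. Among the 6 targets with at least 10 counts in every library, a rule that in turn leaves out genes that fell to near 0, 5 fell and 1 rose. Summed over the 20 targets, the level was 581 to 645 CPM before and 54.4 to 62.3 CPM after withdrawal. Most of the sum before withdrawal came from UNC13A, CHRNB2 and MAPK8IP1, with 266, 117 and 88.4 CPM in VCaP-T. SYT4, a synaptotagmin of secretory vesicles, went from 24.2 ± 1.36 (SD, n = 3) to 0.0292 ± 0.0297 CPM, the latter under the level of 3 counts. SNAP25, a SNARE protein of synaptic vesicle fusion, went from 16.2 ± 0.36 to 0.0198 ± 0.0343 CPM, also under that level.

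GRIN1, a subunit of the NMDA receptor, carries an RE1 match and rose at this step, from 4.68 ± 0.92 to 9.44 ± 2.13 CPM (log2 fold change 1.02 ± 0.15, edgeR adjusted p = 4.59e-06). GRIA2, a subunit of the AMPA receptor, was the other target that rose, from 0 in each VCaP-T library to 0.103 ± 0.055 CPM (edgeR adjusted p = 0.00047). That level is near 3 counts, and GRIA2 passed the filter only through the resistant sublines, where it was higher, so it could not fall here. The fit of the compared sublines alone tested 14 targets, of which 1 rose and 13 fell. CHGA, chromogranin A, also carries a match and had at most 1 count in any library. CHRNB2, a nicotinic receptor subunit, and UNC13A, a priming factor of synaptic vesicles, had the highest levels among the targets in VCaP-T and were singled out after their values were seen. CHRNB2 went from 117 to 2.78 CPM and UNC13A from 266 to 10.7 CPM.

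The listed targets moved in both directions at each later step, and the shares of all genes called there are those given for the regulators. At the direct ENZ step, where REST rose again, 5 targets rose and 5 fell, and the summed level went up to 105 to 112 CPM, with most of that increase in UNC13A, which rose from 10.7 to 54.3 CPM. Among the 6 targets with at least 10 counts in every library, 2 rose and 3 fell at this step. GRIA2 rose to 8.99 ± 0.71 CPM (log2 fold change 6.33 ± 0.21, edgeR adjusted p = 2.95e-15), and SCG2, a granin of secretory granules, rose from 0.198 to 12.6 CPM (5.91 ± 0.21, edgeR adjusted p = 1.28e-15). GRIA2 was tested only through its level in the resistant sublines and was near 3 counts in VCaP-CT, so it could not fall at this step either. L1CAM, a neural adhesion molecule, fell by 0.85 ± 0.19 (edgeR adjusted p = 0.000548). SYN1, which coats synaptic vesicles, rose from 0.403 to 1.23 CPM (1.57 ± 0.25, edgeR adjusted p = 1.5e-05).

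In VCaP-CT-BR, 2 targets rose and 6 fell against VCaP-CT, and the summed level had a median of 45.9 CPM. The 2 that rose were GRIA2, near 3 counts in VCaP-CT, and SYT4, from 0.0292 to 0.136 CPM. SYT4 was tested only through its level in VCaP-T. The fit of the compared sublines alone tested 11 targets, of which 1 rose and 5 fell. VCaP-CT-BR-ER had 6 targets up and 5 down against VCaP-CT-BR, with a summed level of 54.0 to 56.6 CPM. SYT4, at 0.0180 CPM, was among the 5. With these sublines alone, 6 rose and 4 fell of 12 tested. GRIA2 rose at this step as well, from 1.02 to 5.03 CPM (2.30 ± 0.14, edgeR adjusted p = 1.49e-10), while SYP, synaptophysin, fell from 5.93 to 2.11 CPM (-1.48 ± 0.13, edgeR adjusted p = 5e-09).

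**Figure D4:**
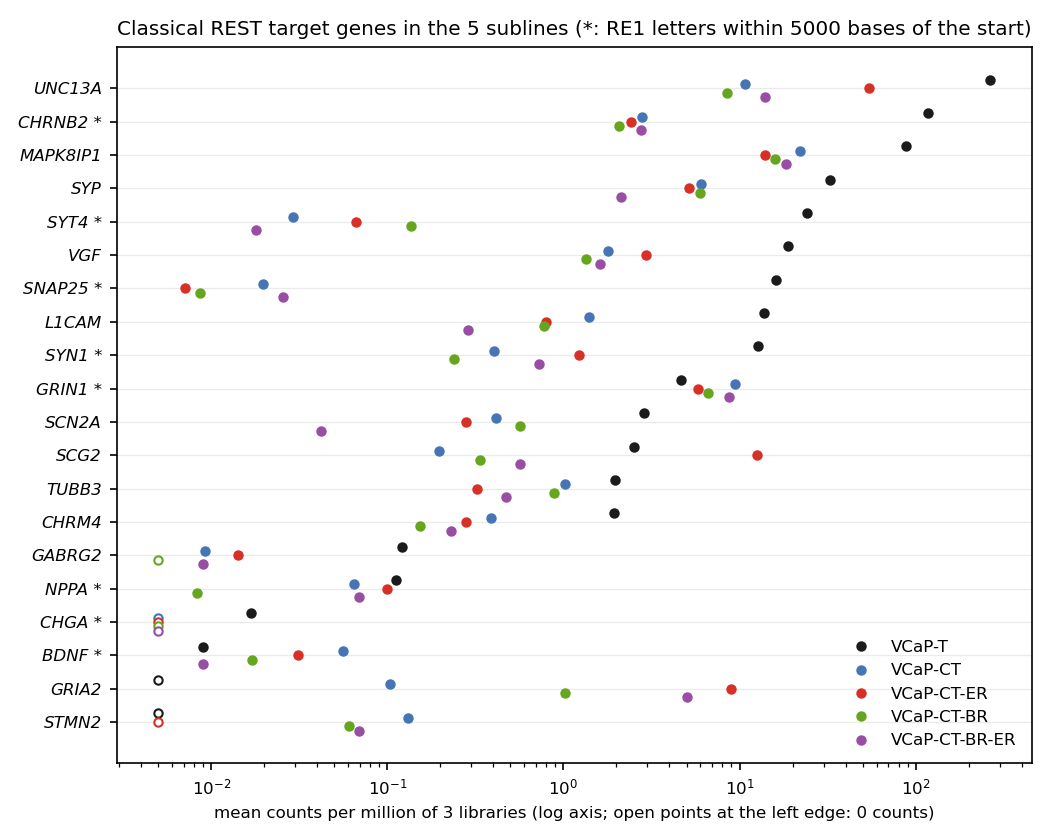
Mean CPM of 3 libraries (log axis) of the 20 listed REST targets in each subline, ordered by the level in VCaP-T, with open points at the left for means of 0 and an asterisk for an RE1 match. The VCaP-T points of 13 tested targets, such as UNC13A at 266 and CHRNB2 at 117, lay to the right of the VCaP-CT points, and GRIA2 and SCG2 were highest in VCaP-CT-ER, at 8.99 and 12.6.

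SRRM4 was not the sole neural splicing regulator to fall with testosterone withdrawal. SRRM3, its paralogue, went from 18.9 ± 2.19 to 0.390 ± 0.071 CPM (log2 fold change -5.58 ± 0.15, edgeR adjusted p = 6.65e-18). NOVA2, a neuronal RNA-binding protein, went from 5.32 to 0.379 CPM (-3.79 ± 0.19, edgeR adjusted p = 2.16e-13) and rose in VCaP-CT-ER to 1.63 CPM (2.04 ± 0.22, edgeR adjusted p = 6.9e-08). Of 9 tested neural and epithelial splicing regulators among 13, 3 rose and 3 fell at withdrawal, with a median log2 fold change of -0.04 beside 0.03 over all genes, and those that rose included PTBP1, a repressor of neural exons (0.32 ± 0.07, edgeR adjusted p = 0.000351), and ELAVL2, a neuronal RNA-binding protein (0.68 ± 0.06, edgeR adjusted p = 6.73e-09). ESRP1, an epithelial splicing factor, was the other one that fell. The direct ENZ step had 4 up and 2 down, the bicalutamide step 3 up and 0 down, and the ENZ step after bicalutamide 2 up and 1 down.

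Other neural and neuroendocrine transcription factors were mostly low, and 16 of 28 did not pass the filter. Among the 12 tested, 2 rose and 3 fell at withdrawal, with a median log2 fold change of -0.31 beside 0.03 over all genes, where NKX2-1, the lung and thyroid factor, fell by 2.53 ± 0.19 (edgeR adjusted p = 1.52e-10) and ATOH1, a proneural factor, rose by 1.99 ± 0.26 (edgeR adjusted p = 7.15e-07). The direct ENZ step had 3 up and 6 down, the bicalutamide step 1 up and 6 down, and the ENZ step after it 2 up and 2 down. INSM2, among those that fell at withdrawal, had 1.89 CPM in VCaP-T and 0.0198 CPM in VCaP-CT. It passed the filter only through VCaP-T and so had to fall. Its rise at the direct ENZ step was to 0.182 CPM. ST18 passed only through VCaP-T and VCaP-CT and so had to fall in VCaP-CT-ER and VCaP-CT-BR. With at least 10 counts in every library, 7 were tested. At withdrawal 1 rose and 2 fell, then 2 and 3, 0 and 5, and 2 and 0 at the later steps. POU3F3, a paralogue of POU3F2, and POU4F1, a sensory neuron factor, rose at both ENZ steps as SOX2 did: POU3F3 by 1.63 ± 0.21 (edgeR adjusted p = 1.06e-06) and 1.15 ± 0.23 (edgeR adjusted p = 0.000354), and POU4F1 by 1.63 ± 0.21 (edgeR adjusted p = 7.29e-07) and 1.53 ± 0.25 (edgeR adjusted p = 4.13e-05).

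Notch signalling restrains proneural factors through HES1 and related repressors. Of 11 tested genes of the pathway among 12, 9 rose and 1 fell at withdrawal, where 33.1% of all genes rose and 32.2% fell, with a median log2 fold change of 0.49 beside 0.03 over all genes. The one that fell was HES1 itself, from 31.3 to 3.44 CPM (-3.17 ± 0.11, edgeR adjusted p = 6.03e-16), while HEY1, another Notch target, rose by 1.69 ± 0.13 (edgeR adjusted p = 2.66e-10). At the direct ENZ step 2 rose and 6 fell, led by the ligand JAG1 (-2.16 ± 0.06, edgeR adjusted p = 3.04e-17), at the bicalutamide step 2 rose and 7 fell, and at the ENZ step after it 6 rose and 3 fell. The medians at these 3 steps were -0.28, -0.46 and 0.36 beside -0.0186, -0.0165 and 0.00296 over all genes, and the shares of all genes called in each direction are those given for the regulators.

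The sublines were checked against markers of the cell line. All 10 prostate luminal markers had counts. At withdrawal 2 rose and 8 fell, at the direct ENZ step 2 rose and 5 fell, at the bicalutamide step 0 rose and 8 fell, and at the ENZ step after it 3 rose and 1 fell. The shares of all genes called, for these and the other markers, are those given for the regulators. KLK3, an androgen-induced gene, had a mean of 3540 CPM for VCaP-T, 32.7 for VCaP-CT, 533 for VCaP-CT-ER, 14.1 for VCaP-CT-BR and 39.8 for VCaP-CT-BR-ER. The 6 neuroendocrine markers summed to 287 to 302 CPM in VCaP-T and to 58.7 to 102 CPM in the other sublines, but the members moved apart. At withdrawal 4 of the 5 tested fell and 1 rose. The largest falls were those of CHGB, from 158 to 0.877 CPM, and SCG3, from 73.4 to 3.23 CPM. The one that rose was ENO2, neuron-specific enolase, from 21.8 to 66.4 CPM (log2 fold change 1.62 ± 0.06, edgeR adjusted p = 6.1e-16), and it was the largest part of the sum in VCaP-CT. NCAM1, a neural adhesion molecule, fell from 6.95 to 1.88 CPM at withdrawal and rose to 29.7 CPM at the direct ENZ step (3.93 ± 0.10, edgeR adjusted p = 1.84e-18). At that step 2 of these markers rose and 3 fell. The bicalutamide step had 1 up and 3 down, and the ENZ step after it 0 up and 3 down, with NCAM1 among those that fell. These counts depended on the setting. Without the filter, and in fits of the compared sublines alone, the direct ENZ step had 2 up and 1 down. The bicalutamide step then had 1 up and 2 down. The untested marker was CHGA, with at most 1 count as given above. Markers of leucocytes, endothelium, stroma and basal cells, 10 in all, summed to 23.9 to 28.8 CPM for VCaP-T, 12.0 to 14.4 for VCaP-CT, 1.69 to 2.14 for VCaP-CT-ER, 2.12 to 3.37 for VCaP-CT-BR and 1.72 to 2.10 for VCaP-CT-BR-ER. Of these markers, 5 were tested and 3 fell at withdrawal, led in level by VWF, and the leucocyte gene PTPRC had at most 2 counts. At the direct ENZ step 4 of the 5 fell and DCN, a stromal proteoglycan, rose, from 0.0474 CPM, under the level of 3 counts, to 0.426 CPM. At the ENZ step after bicalutamide VWF fell and DCN rose while SRRM4 rose. DCN passed the filter on low counts only through both ENZ-resistant sublines, where it is higher, and so had to rise at these steps. PECAM1, among the 4 that fell at the direct ENZ step, had 2.54 CPM in VCaP-CT and 0.0796 CPM in VCaP-CT-ER. It passed only through VCaP-T and VCaP-CT and so had to fall there. With at least 10 counts in every library, 2 of these markers were tested and 2 fell at the direct ENZ step. The part of these markers in the changes of the regulators was not tested.

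Genes with the pattern most like each regulator were ranked by Pearson's r of log2 CPM over the 15 libraries, among 12720 genes, as a description, since the libraries form 5 groups of 3 that share a subline. For REST these were ADGRA3 (r = 0.995), ATP8A1, GPC6, SFPQ and LINC02726. The genes most like SRRM4 included TINCR (0.983), HS1BP3, TNFSF13 and RRBP1, and INSM1 was most like CAMK1D (0.992), RALGAPA2, MAGED2, TNIK and PDE8B. For ONECUT2 they included DTX3L (0.981), ENSG00000261324, CHRAC1 and TOX. SOX2, the lowest in level of the 5, had the lowest likeness, with genes that included EPHX1 (0.944), CAPN2, APH1A and HNRNPM.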

How the data were processed

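Per the labels and file headers, the authors aligned RNA sequencing reads to GRCh38 with STAR 2.5.4b and deposited raw fragment counts per gene from featureCounts 1.6.2, run on read pairs over GENCODE 28 exons with no strand setting, so overlapping and antisense genes share or lose fragments. Symbols came from GENCODE 44 by Ensembl identifier (57754 of 58381 matched).

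From these counts, CPM was computed on the library total, and FPKM divides it by exon kilobases. Differences were tested with edgeR 4.0.16 in R 4.3.3: genes were kept by filterByExpr with minimum count 10 (19621 genes) and scaled by TMM, the model held 1 term per subline over 15 libraries, and p-values of two-sided quasi-likelihood F tests were adjusted by Benjamini-Hochberg over all genes tested, with calls under 0.05. Standard errors were taken from the fold change and its F statistic. A limit of 3 counts was used for genes at 0, and intervals cover counting error only. No libraries were identical.

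The 7 regulators were all named. Of each other list, up to 2 genes that rose and 2 that fell most per step, at an average log2 CPM of at least 0, could be named, and genes outside that rule are given as markers or as said in the text. The regulators and lists were chosen with earlier results of these data known. Alternatives were DESeq2 1.42.0, other scalings and filters, fits of the compared sublines alone, a replicate block and each library left out. The script was tested on simulated data. Some genes that these rules name are not reported here. Python 3.11.15 and matplotlib 3.10.9 were used.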

Additional observations from a re-analysis of the deposited data

Results flagged for a closer look

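The step to ENZ resistance differed between VCaP-CT and VCaP-CT-BR as the starting subline for 4 regulators, by the edgeR test of the difference between the steps. On the log2 scale, the step after bicalutamide minus the direct step was 1.598 for INSM1, 1.68 for SRRM4, -0.35 for REST and -0.35 for ONECUT2. For SRRM4 the direction changed between the steps, with -0.90 in the direct step and 0.77 after bicalutamide. That rise ran from 0.56 to 1.08 over the libraries left out and lost its call without VCaP-CT-BR replicate 3. Leaving out each library in turn kept the difference for INSM1 between 1.53 and 1.67, for SRRM4 between 1.45 and 1.97, for REST between -0.42 and -0.29 and for ONECUT2 between -0.43 and -0.29. Each starting subline and each resistant subline is 1 derivation, so the starting subline and the course of the derivation cannot be told apart. Whether VCaP-CT-BR had already met ENZ is not known from its label.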

How the results depend on the processing

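Of 350 refitted fold changes of the regulators, 343 kept their direction and their side of the threshold, and the 163 counts of genes or regulators called stayed within 1.5 times the reported ones. The 2 that turned were ONECUT2 from VCaP-CT to VCaP-CT-BR, which was near 0 and became 0.05 without VCaP-CT replicate 3 (edgeR adjusted p = 0.623) and 0.03 without VCaP-CT-BR replicate 2 (edgeR adjusted p = 0.789). Of the rest, 2 lost and 3 gained a call, each when 1 library was left out, with the values given beside the results. Over the libraries left out, the regulators called were 5 at withdrawal, 5 at the direct ENZ step, 3 to 4 at the bicalutamide step and 3 to 4 at the ENZ step after it, and that ONECUT2 value ran from -0.0876 to 0.0493. Replicate numbers were not taken to pair the libraries, since the mean correlation of same-numbered deviations over 12720 genes was -0.28 at withdrawal, 0.29 at the direct ENZ step, 0.10 at the bicalutamide step and 0.12 at the ENZ step after it, with at least 1 pair under 0.1 at each. The replicate block left the regulators called at 5, 5, 3 and 4, with 12727 genes called at withdrawal against 12821 without it. Depth limits POU3F2 and NEUROD1, where a level under 0.0639 CPM in a library would not reach 3 counts.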
